A study of Bos taurus with 12 samples.

Results

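Interferon-stimulated genes are the genes that a cell switches on when interferon, the secreted alarm signal of virus infection, reaches its receptors. A list of 42 bovine symbols of this kind was looked up, by gene identifier, in the count table of an RNA-seq study of bovine embryonic stem cells. Of these, 38 had an entry, 37 had an entry with identifiers of its own, and 32 had enough counts to be tested among 13920 genes. IFIT1, BST2, IFITM2 and IFITM3 matched no entry and are not analysed here. B2M, the light chain of class I antigen-presenting molecules, shares its Ensembl identifier with a second entry and was left out of the tests reported. OAS1Z, OAS2, RSAD2, IFITM1 and TRIM25 were too low to test with all libraries.

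Type I interferons bind a receptor made of IFNAR1 and IFNAR2, whose kinases JAK1 and TYK2 activate STAT proteins. STAT2 and IRF9 belong to a complex that binds the interferon-stimulated response element in the promoters of genes such as ISG15, MX1, IFI6 and the OAS family. Interferon gamma acts through other receptors on gamma-activated sites, and IRF1, TAP1 and the immunoproteasome genes are classical targets of that arm. Pluripotent stem cells are known for a weak response to interferon, while fibroblasts, the usual feeder cells, respond well.

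All 12 libraries are poly-A RNA of wild-type cells of 1 line, F7, in 4 groups of 3. They are called MC (treatment label NC), 1/7MC, 1/7MC+Pyr and 1/7MC+Pyr+FGF, and the series title speaks of feeders at low density, of pyruvate and of recombinant basic FGF of human sequence. The labels do not spell out MC, give no doses or times, and do not say whether replicates came from separate cultures, so a p-value reflects only how far these libraries spread, which may be technical. The 3 groups named 1/7MC share that condition, pyruvate is present in both of the last groups, and FGF without pyruvate was not among them.

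Levels are CPM (counts relative to the library's total over the genes tested) scaled by the trimmed mean of M values. These totals were 26954167 to 43916544 counts per library, and those over all entries 27373759 to 44440972. A gene is called changed at an adjusted p under 0.05 in edgeR's quasi-likelihood test, adjusted over all genes tested. Fold changes are on the log2 scale with a standard error after ±, and 3 libraries stand in each group. The counts of MC replicates 2 and 3 look as if made with gene models unlike those of the remaining libraries, a step the labels do not mention. B2M and LOC783680, which share an Ensembl identifier, both had 339 counts in MC replicate 2 and 141 in MC replicate 3, but 323 and 1114 in MC replicate 1. MC replicates 2 and 3 were also more alike than any other pair of replicates. The chi-square of their gene counts per degree of freedom was 3.32. It was 68.5 and 67.1 for each of them with MC replicate 1, and 9.26 to 110 for pairs within the other groups. Each comparison with MC is therefore given with all MC libraries and with MC replicate 1 alone, where 14361 genes and 35 of the listed genes were tested and MC was assumed to vary like the other groups. Among 12 pluripotent cell markers, POU5F1 lay between 670.6 and 1390 CPM and NANOG between 34.1 and 113 CPM in all libraries. Of the 12, the number with a group mean under 1 CPM was 1 in MC, 2 in 1/7MC, 0 in 1/7MC+Pyr and 1 in 1/7MC+Pyr+FGF.

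Of the 32 tested genes, 10 rose in 1/7MC against MC and fell when FGF was added to pyruvate, and others took different courses. In 1/7MC against MC, 20 of 32 rose and 4 fell, where 23.7% of all genes tested rose and 21.3% fell. In 1/7MC+Pyr against 1/7MC, 6 rose and 2 fell, against a background of 8.08% and 10.1%. In 1/7MC+Pyr+FGF against 1/7MC+Pyr, 14 fell and 0 rose, where 2.12% of all genes fell and 0.639% rose. Of the 32 genes, 21 had their lowest mean in MC and 7 in 1/7MC+Pyr+FGF, while 15 had their highest mean in 1/7MC+Pyr and 11 in 1/7MC. At least 1 of the 6 comparisons between groups called 27 of the 32. The counts of lowest and highest means and of genes called at least once were not made over all genes tested. They have no background to be read against.

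**Figure D1:**
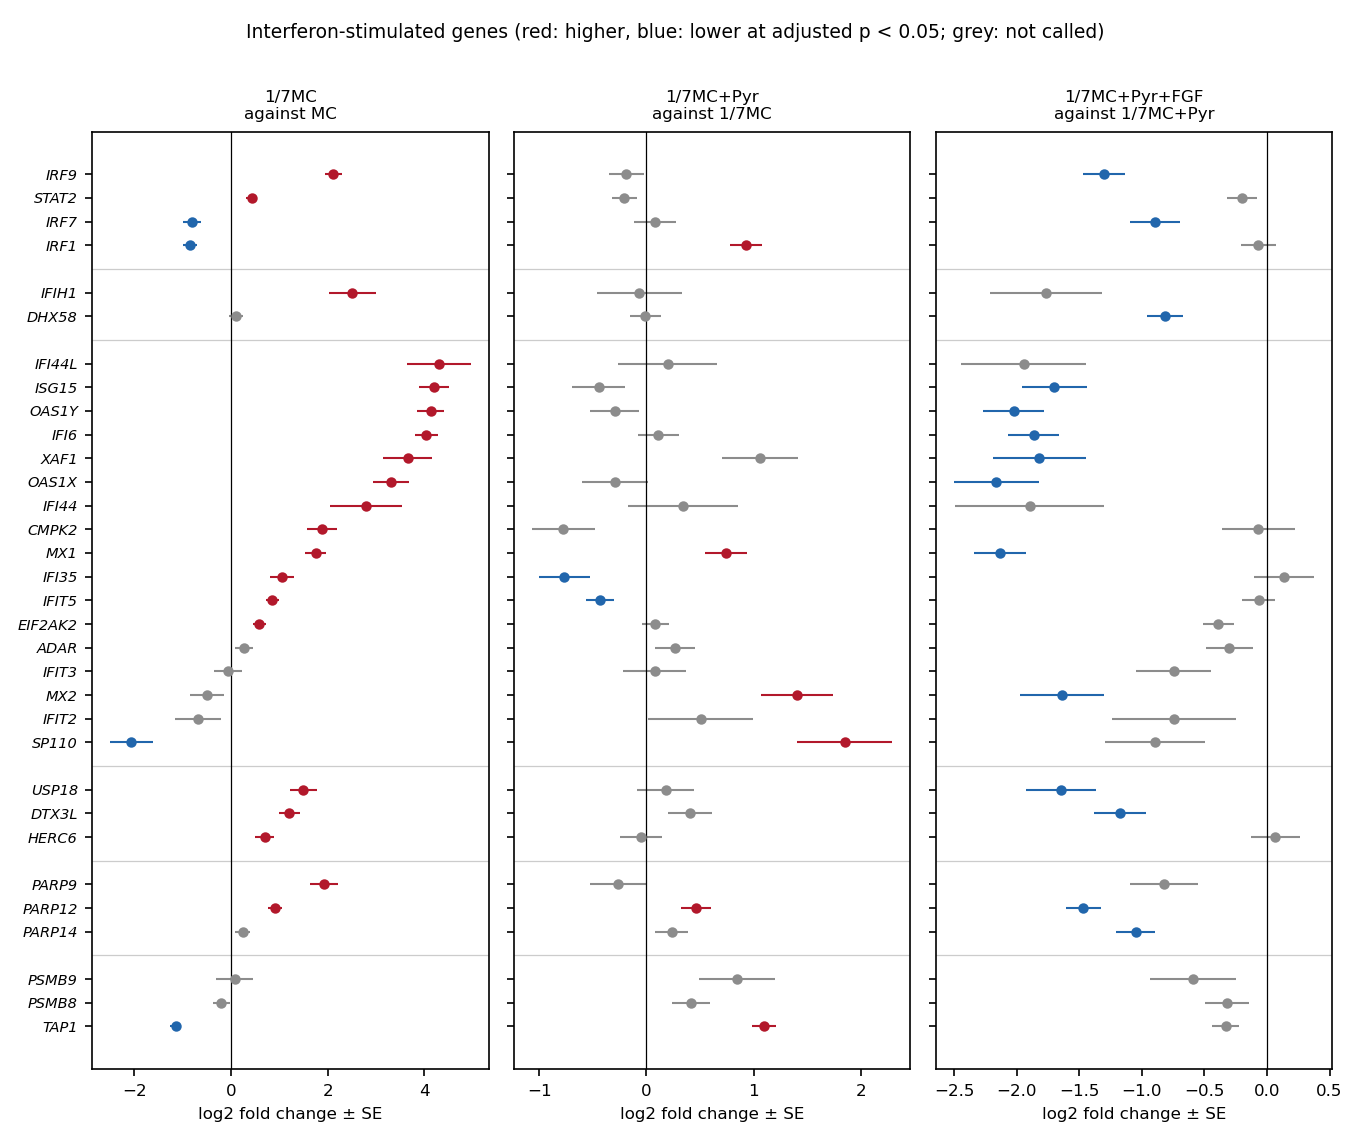
Log2 fold change ± SE (x axis) of the 32 tested interferon-stimulated genes, grouped by role, for 3 successive comparisons with separate x scales; red marks higher and blue lower at an adjusted p under 0.05, grey not called. In the left panel 20 genes lie to the right in red, and in the right panel 14 lie to the left in blue and none in red.

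Among the transcription factors, IRF9, the DNA-binding subunit of the complex with STAT2, moved most. Replicates 1 to 3 of IRF9 read 2.94, 3.03 and 3.12 CPM in MC, 12.6, 13.6 and 13.2 in 1/7MC, 15.1, 9.17 and 10.4 with pyruvate, and 4.54, 4.45 and 5.07 with pyruvate and FGF. The libraries with FGF lay below all 6 libraries of 1/7MC and 1/7MC+Pyr and above all 3 of MC. IRF9 rose by 2.12 ± 0.17 in 1/7MC against MC (adjusted p = 1.48e-06), did not pass the test with pyruvate (-0.19 ± 0.16), and fell by 1.30 ± 0.17 with FGF (adjusted p = 0.00242).

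STAT2, the partner of IRF9 in that complex, moved little. Its levels were 36.8, 32.7 and 32.7 CPM in MC, 47.9, 44.8 and 44.6 in 1/7MC, 32.9, 45.3 and 40.6 with pyruvate, and 31.8, 35.0 and 36.6 with pyruvate and FGF. STAT2 rose by 0.43 ± 0.12 in 1/7MC against MC (adjusted p = 0.0104), but not against MC replicate 1 alone (0.33 ± 0.17, adjusted p = 0.192).

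IRF7, which amplifies type I interferon production, went another way. It read 11.99, 11.6 and 10.7 CPM in MC, 5.84, 5.44 and 8.35 in 1/7MC, 8.81, 5.92 and 6.04 with pyruvate, and 3.33, 3.69 and 4.17 with pyruvate and FGF. Every MC library lay above every other library, and the 3 libraries with FGF lay below all others. IRF7 fell by 0.81 ± 0.19 in 1/7MC against MC (adjusted p = 0.00473) and by a further 0.89 ± 0.20 with FGF (adjusted p = 0.0346).

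IRF1, the main transcription factor of the interferon gamma arm, was lowest in 1/7MC. IRF1 had 12.8, 14.4 and 13.6 CPM in MC, 7.69, 6.21 and 8.66 in 1/7MC, 13.1, 14.7 and 15.1 with pyruvate, and 14.7, 14.8 and 11.4 with pyruvate and FGF. The 1/7MC libraries did not overlap those of any other group. IRF1 fell by 0.85 ± 0.15 in 1/7MC (adjusted p = 0.000496), rose by 0.93 ± 0.15 with pyruvate (adjusted p = 0.000982), and stayed near that level with FGF (-0.07 ± 0.14, not called).

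The antiviral effectors held the largest changes. In 1/7MC against MC 12 of 17 tested rose and 1 fell (background 23.7% and 21.3%). When FGF was added to pyruvate 7 fell and 0 rose (background 2.12% and 0.639%). ISG15 encodes a ubiquitin-like protein that is conjugated to other proteins or secreted. Its replicates read 0.644, 1.02 and 0.557 CPM in MC, 12.2, 12.5 and 16.4 in 1/7MC, 11.1, 10.1 and 9.05 with pyruvate, and 2.98, 1.94 and 4.39 with pyruvate and FGF. No library with FGF reached those of 1/7MC or 1/7MC+Pyr, and none fell to the level of MC. ISG15 rose by 4.20 ± 0.31 in 1/7MC (adjusted p = 5.36e-07; 4.42 ± 0.45 against MC replicate 1 alone) and fell by 1.70 ± 0.26 with FGF (adjusted p = 0.00592).

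IFI6, a small membrane protein of the endoplasmic reticulum and mitochondria, followed the same course. Its levels were 0.672, 0.479 and 0.520 CPM in MC, 8.37, 9.73 and 9.79 in 1/7MC, 9.66, 11.9 and 8.56 with pyruvate, and 2.86, 1.97 and 3.43 with pyruvate and FGF. The FGF libraries again stood apart from both sides. IFI6 fell by 1.86 ± 0.20 with FGF (adjusted p = 0.000679) after 0.11 ± 0.19 with pyruvate, which was not called. It remained 2.29 ± 0.25 above MC with pyruvate and FGF (adjusted p = 3.6e-05).

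The OAS genes encode enzymes that make short oligoadenylates, the activator of RNase L, when they meet double-stranded RNA. OAS1Y read 1.51, 1.44 and 0.928 CPM in MC, 21.4, 22.3 and 25.0 in 1/7MC, 19.7, 20.3 and 16.1 with pyruvate, and 4.57, 2.78 and 6.41 with pyruvate and FGF. OAS1X read 0.280, 0.862 and 0.854 CPM in MC, 5.16, 8.30 and 5.92 in 1/7MC, 4.73, 5.52 and 5.61 with pyruvate, and 0.796, 1.06 and 1.70 with pyruvate and FGF. For OAS1Y the FGF libraries lay between the other groups. For OAS1X they overlapped MC replicates 2 and 3 and lay above MC replicate 1. With pyruvate and FGF, OAS1X was not called against all MC libraries (0.851 ± 0.393), and stood 2.038 ± 0.565 above MC replicate 1 alone. With FGF, OAS1Y fell by 2.02 ± 0.24 (adjusted p = 0.00151) and OAS1X by 2.16 ± 0.34 (adjusted p = 0.00679).

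OAS2, OAS1Z, OAS1X and OAS1Y are neighbours in the genome, with 0 coding genes between OAS2 and OAS1Y, OAS1Y and OAS1X, or OAS1X and OAS1Z. OAS2 peaked at 0.530 CPM and OAS1Z at 0.371 CPM, both in 1/7MC replicate 2. Means of OAS1Z were 0.0413 CPM in MC, 0.310 in 1/7MC, 0.1897 in 1/7MC+Pyr and 0.105 in 1/7MC+Pyr+FGF. Means of OAS2 were 0.0341, 0.345, 0.204 and 0.0833 CPM in the same order. The OAS1 copies are close relatives, as are MX1 and MX2 and the genes of the IFIT family, so reads may be split among them and the value of each copy is uncertain. The labels state no strand-marking step, so reads of overlapping genes cannot be told apart either.

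MX1, a dynamin-like GTPase that blocks several RNA viruses, rose in both of the first comparisons. It read 2.02, 1.85 and 2.00 CPM in MC, 6.17, 6.13 and 7.45 in 1/7MC, 12.2, 10.7 and 10.2 with pyruvate, and 2.20, 1.84 and 3.49 with pyruvate and FGF. The libraries with FGF overlapped MC, and the pyruvate libraries lay above all others. MX1 rose by 1.75 ± 0.21 in 1/7MC (adjusted p = 3.33e-05) and by 0.74 ± 0.20 with pyruvate (adjusted p = 0.0195), then fell by 2.13 ± 0.21 with FGF (adjusted p = 0.000593).

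MX2, its neighbour in the genome, was far lower. Its levels were 0.672, 0.734 and 0.631 CPM in MC, 0.371, 0.451 and 0.606 in 1/7MC, 1.03, 1.67 and 1.10 with pyruvate, and 0.586, 0.272 and 0.340 with pyruvate and FGF. The pyruvate libraries were the highest, followed by MC, and the libraries of 1/7MC and of pyruvate and FGF overlapped. MX2 had -0.50 ± 0.35 in 1/7MC against MC, which was not called, rose by 1.40 ± 0.34 with pyruvate (adjusted p = 0.0122) and fell by 1.64 ± 0.34 with FGF (adjusted p = 0.0247).

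XAF1, a binding partner of the apoptosis inhibitor XIAP, and IFI44L also began near the floor in MC. XAF1 read 0.056, 0.0638 and 0.334 CPM in MC, 1.55, 1.88 and 2.02 in 1/7MC, 4.15, 4.05 and 3.20 with pyruvate, and 1.05, 0.605 and 1.56 with pyruvate and FGF. IFI44L read 0.028, 0.0319 and 0.408 CPM in MC, 2.50, 3.31 and 2.77 in 1/7MC, 3.05, 3.91 and 2.88 with pyruvate, and 0.632, 0.393 and 1.53 with pyruvate and FGF. In both genes MC replicate 3 was the highest MC library. XAF1 rose by 3.66 ± 0.51 in 1/7MC (adjusted p = 9.8e-05) and IFI44L by 4.30 ± 0.66 (adjusted p = 0.000208). With FGF, XAF1 fell by 1.82 ± 0.37 (adjusted p = 0.0228), while IFI44L, at -1.95 ± 0.50, missed the threshold (adjusted p = 0.0599).

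IFI44, next to IFI44L in the genome, rested on few counts: 0, 1 and 3 in MC, 7, 11 and 15 in 1/7MC, 13, 18 and 7 with pyruvate, and 7, 3 and 2 with pyruvate and FGF. IFI44 rose by 2.80 ± 0.75 in 1/7MC (adjusted p = 0.00873) and had -1.90 ± 0.59 with FGF, which was not called (adjusted p = 0.117). MC replicate 1 had no count, and against a floor of 3 counts in that library the mean of 1/7MC was at least 3.82-fold higher.

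CMPK2, IFIT5 and IFI35 rose in 1/7MC and had fold changes near 0 with FGF. CMPK2, a mitochondrial nucleotide kinase, read 3.31, 0.990 and 1.82 CPM in MC, 8.06, 6.71 and 7.94 in 1/7MC, 4.52, 4.54 and 4.19 with pyruvate, and 3.77, 4.96 and 3.94 with pyruvate and FGF. IFIT5, which binds viral RNA, read 49.8, 55.1 and 60.0 CPM in MC, 94.4, 97.5 and 106 in 1/7MC, 60.9, 85.2 and 74.4 with pyruvate, and 76.1, 60.7 and 73.9 with pyruvate and FGF. IFI35, a leucine-zipper protein, read 1.54, 1.41 and 1.23 CPM in MC, 3.34, 2.33 and 3.06 in 1/7MC, 1.34, 2.07 and 1.71 with pyruvate, and 2.18, 2.06 and 1.39 with pyruvate and FGF. In all of these the 1/7MC libraries were the highest and the groups with pyruvate and with pyruvate and FGF overlapped. CMPK2 rose by 1.88 ± 0.31 in 1/7MC (1.20 ± 0.24 against MC replicate 1 alone), IFIT5 by 0.86 ± 0.13 and IFI35 by 1.06 ± 0.24. With FGF added they stood at -0.07 ± 0.29, -0.07 ± 0.13 and 0.14 ± 0.24, and none was called.

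IFIT2 and IFIT3, relatives of IFIT5, had group means of 0.293 to 0.556 CPM and of 0.824 to 1.38 CPM and were called in no comparison. IFIT2 had between 5 and 23 counts in each library. IFIT3 read 0.843, 0.635 and 0.992 CPM with pyruvate and FGF, below all other libraries. Its change when FGF was added was -0.746 ± 0.301, which missed the threshold (adjusted p = 0.21). RSAD2, an antiviral enzyme that lies beside CMPK2, stayed at or below 0.460 CPM in every library. EIF2AK2, the kinase that shuts off translation on double-stranded RNA, had means between 10.8 CPM in MC and 17.2 CPM in 1/7MC+Pyr. EIF2AK2 rose by 0.59 ± 0.13 in 1/7MC (adjusted p = 0.00233; 0.54 ± 0.19 and adjusted p = 0.0563 against MC replicate 1 alone). ADAR, the RNA-editing enzyme, was called in no comparison; MC replicate 1 had 132 CPM, and MC replicates 2 and 3 had 79.0 and 74.3.

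SP110, a nuclear body protein, was the effector that fell in 1/7MC. It read 0.924, 1.02 and 0.408 CPM in MC, 0.270, 0.186 and 0.116 in 1/7MC, 0.548, 0.690 and 0.817 with pyruvate, and 0.398, 0.272 and 0.425 with pyruvate and FGF. The 1/7MC libraries were below all others. SP110 fell by 2.06 ± 0.44 in 1/7MC (adjusted p = 0.00217) and rose by 1.85 ± 0.44 with pyruvate (adjusted p = 0.0127).

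**Figure D2:**
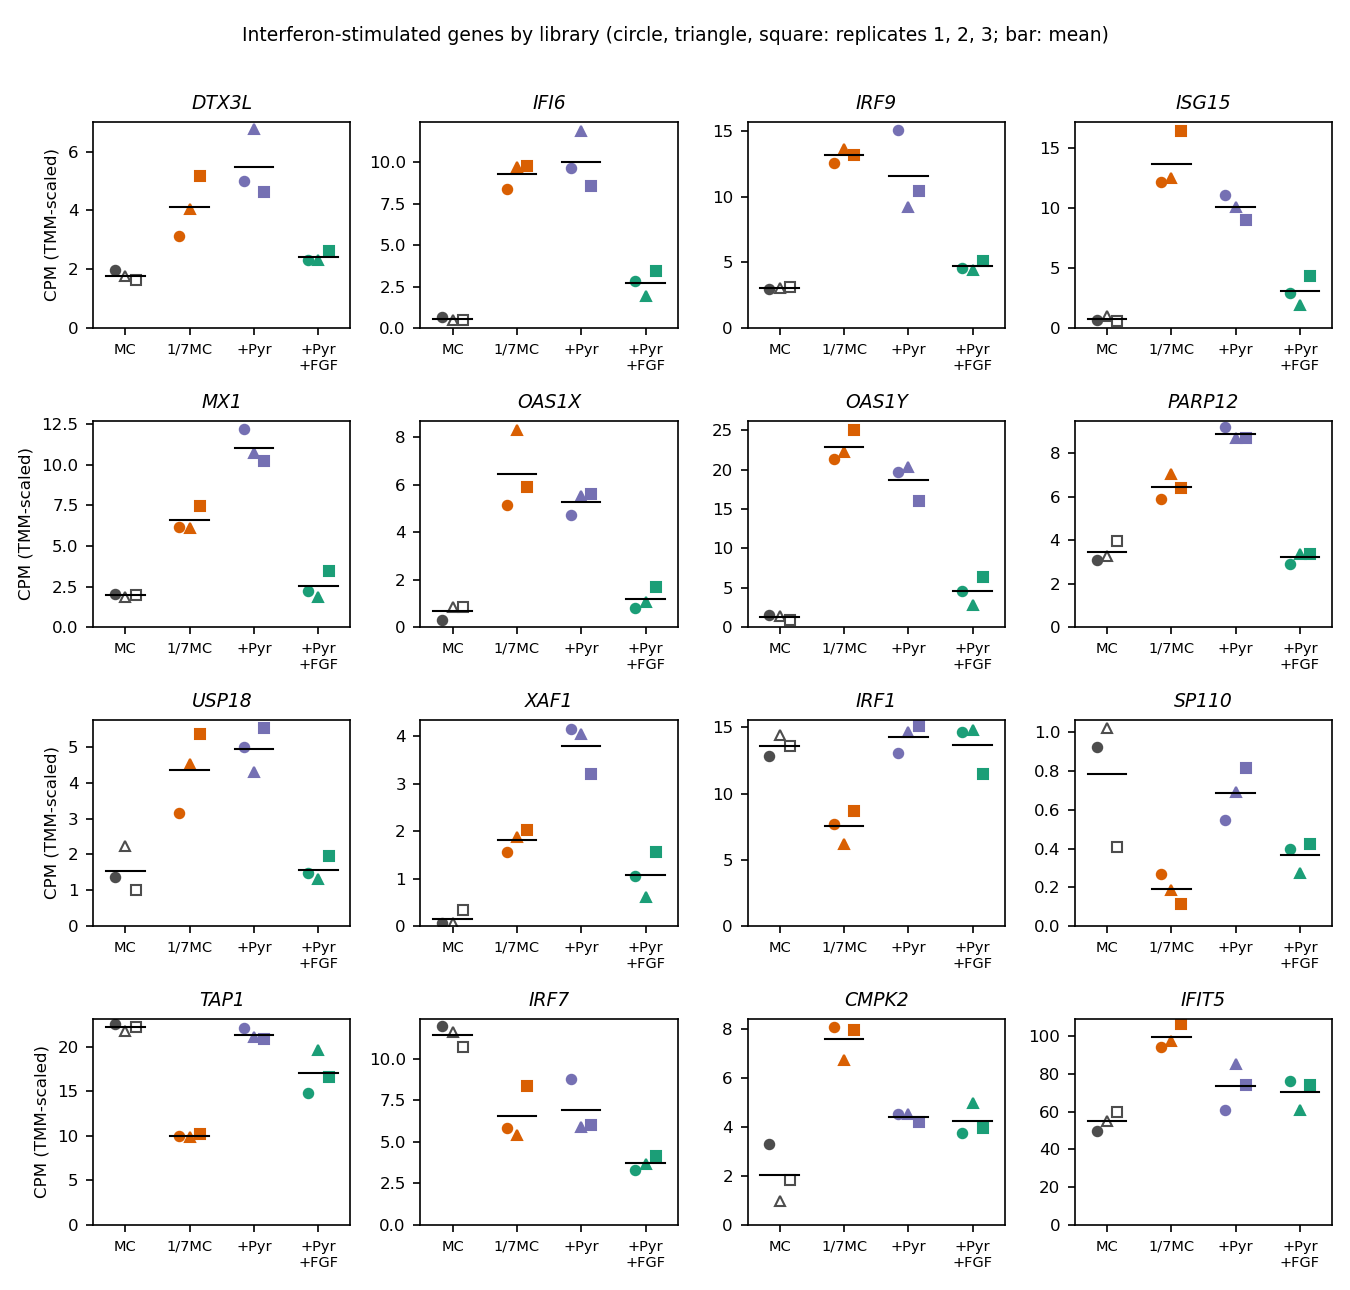
CPM of 16 interferon-stimulated genes in each library (y axis, linear from 0, scaled per gene) by group; circles, triangles and squares are replicates 1, 2 and 3, bars are group means, and open symbols are MC replicates 2 and 3. ISG15, IFI6 and OAS1Y are high in 1/7MC and 1/7MC+Pyr and lower with FGF, while IRF1, SP110 and TAP1 are lowest in 1/7MC.

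Of the RNA sensors, IFIH1 (the MDA5 helicase) rose in 1/7MC and DHX58 (the LGP2 helicase) did not. IFIH1 read 0.056, 0.287 and 0.408 CPM in MC, 1.01, 1.75 and 1.36 in 1/7MC, 1.20, 1.26 and 1.49 with pyruvate, and 0.398, 0.212 and 0.538 with pyruvate and FGF. DHX58 read 17.3, 17.3 and 15.3 CPM in MC, 17.6, 17.5 and 18.6 in 1/7MC, 20.6, 16.4 and 16.3 with pyruvate, and 12.3, 8.32 and 9.69 with pyruvate and FGF. The FGF libraries were the lowest for DHX58. For IFIH1 they overlapped MC replicates 2 and 3 and lay above MC replicate 1, which had 2 counts. IFIH1 rose by 2.51 ± 0.48 in 1/7MC (adjusted p = 0.00116) and had -1.76 ± 0.45 with FGF, which missed the threshold (adjusted p = 0.0574). DHX58 had 0.10 ± 0.14 in 1/7MC and fell by 0.81 ± 0.15 with FGF (adjusted p = 0.0122).

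In the ubiquitin and ISG15 pathway all 3 genes tested rose in 1/7MC (background 23.7%) and 2 of them fell with FGF (background 2.12%). USP18, which strips ISG15 from proteins and restrains the interferon receptor, read 1.37, 2.23 and 1.00 CPM in MC, 3.17, 4.54 and 5.37 in 1/7MC, 5.00, 4.31 and 5.54 with pyruvate, and 1.48, 1.30 and 1.96 with pyruvate and FGF. DTX3L, a ubiquitin ligase that works with PARP9, read 1.96, 1.76 and 1.63 CPM in MC, 3.14, 4.06 and 5.17 in 1/7MC, 5.00, 6.76 and 4.62 with pyruvate, and 2.32, 2.33 and 2.61 with pyruvate and FGF. The FGF libraries overlapped MC for USP18 and lay just above it for DTX3L. USP18 rose by 1.5 ± 0.29 and fell by 1.65 ± 0.28 with FGF (adjusted p = 0.00108 and 0.00992), and DTX3L rose by 1.21 ± 0.21 and fell by 1.18 ± 0.21 (adjusted p = 0.000658 and 0.0112). HERC6, a HERC-family ubiquitin ligase, rose by 0.70 ± 0.20 in 1/7MC (adjusted p = 0.0137; 0.11 against MC replicate 1 alone) and had 0.07 ± 0.20 with FGF. TRIM25, a ubiquitin ligase of RNA sensing, had at most 0.168 CPM in any library and no counts in 1/7MC.

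The PARP genes encode ADP-ribosyltransferases, and PARP9, DTX3L and PARP14 stand side by side in the genome. PARP12 read 3.08, 3.29 and 3.97 CPM in MC, 5.90, 7.03 and 6.38 in 1/7MC, 9.18, 8.71 and 8.70 with pyruvate, and 2.90, 3.36 and 3.37 with pyruvate and FGF. PARP9 read 1.01, 0.479 and 0.779 CPM in MC, 2.16, 3.05 and 3.41 in 1/7MC, 2.19, 2.79 and 2.20 with pyruvate, and 1.52, 1.03 and 1.502 with pyruvate and FGF. PARP14 read 3.81, 4.41 and 4.94 CPM in MC, 4.62, 5.46 and 5.40 in 1/7MC, 5.62, 6.21 and 6.43 with pyruvate, and 3.40, 2.63 and 2.78 with pyruvate and FGF. In each the FGF libraries lay below all 6 libraries of 1/7MC and 1/7MC+Pyr. With FGF, PARP12 fell by 1.47 ± 0.14 (adjusted p = 0.000593) and PARP14 by 1.05 ± 0.16 (adjusted p = 0.00558), while PARP9 had -0.82 ± 0.27 (adjusted p = 0.133). In 1/7MC against MC, PARP9 rose by 1.92 ± 0.29 and PARP12 by 0.91 ± 0.14, and PARP14 had 0.24 ± 0.15, which was not called.

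Of the antigen presentation genes none of 3 rose in 1/7MC against MC, and 1 fell (background 23.7% and 21.3%). With 3 genes tested, these counts describe single genes only. TAP1, a subunit of the peptide transporter for class I molecules, read 22.5, 21.8 and 22.2 CPM in MC, 9.95, 9.89 and 10.2 in 1/7MC, 22.1, 21.1 and 20.8 with pyruvate, and 14.8, 19.6 and 16.6 with pyruvate and FGF. The 1/7MC libraries stood far below the rest, and the FGF libraries lay between. TAP1 fell by 1.15 ± 0.11 in 1/7MC (adjusted p = 4.36e-06; 1.16 ± 0.16 against MC replicate 1 alone) and rose by 1.09 ± 0.11 with pyruvate (adjusted p = 3.48e-05). PSMB8 and PSMB9, immunoproteasome subunits on either side of TAP1 in the genome, were called in none of the 6 comparisons with all libraries. Their group means were 5.10 to 6.78 CPM and 0.469 to 0.870 CPM. Against MC replicate 1 alone, which had 8 counts, PSMB9 stood 1.953 ± 0.549 higher in 1/7MC+Pyr.

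Levels can be set beside each other between genes only per length, here as the deposited length-scaled signal, brought to 1 common total per library. On that scale IFIT5 led in MC with a mean of 33.7, followed by ADAR with 27.8 and TAP1 with 14.4, while ISG15 stood at 2.42. In MC replicate 1 alone the order differed: ADAR led with 40.65, ahead of IFIT5 with 32.62 and TAP1 with 15.66, and ISG15 stood at 2.25. In 1/7MC, IFIT5 stood at 64.9, ISG15 at 47.7, ADAR at 35.2, OAS1Y at 28.1 and IFI6 at 20.0. With pyruvate and FGF, ISG15 was back at 10.02, below IFIT5 (42.6), ADAR (32.1), STAT2 (13.4) and TAP1 (11.1).

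In 1/7MC against MC the median log2 fold change of the 32 listed genes was 0.88, against 0.005 for all genes tested, and 15 of the rises and 2 of the falls exceeded 2-fold. Against MC replicate 1 alone 17 of 35 rose and 4 fell, where 14% of all genes rose and 9.96% fell. Both fits called 20 genes the same way: 16 that rose, among them ISG15, OAS1Y and IFI6, and IRF1, IRF7, SP110 and TAP1, which fell. EIF2AK2, HERC6, IFI35 and STAT2 lost their call with MC replicate 1 alone.

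Genes listed as fibroblast and feeder markers were also higher in 1/7MC. All 30 such markers with an entry were higher in 1/7MC than in MC, with a median of 1.87, and 28 were against MC replicate 1 alone. Their summed level was 9662 to 9943 CPM in MC, 27010 to 36580 in 1/7MC, 31290 to 46730 in 1/7MC+Pyr and 21560 to 29640 in 1/7MC+Pyr+FGF, and none of the 30 was at 0 in any group. Their part in the changes of the interferon-stimulated genes was not tested. In bulk RNA, fewer cells of a type and less RNA per cell cannot be told apart. Nor does bulk RNA show which cells the marker transcripts came from, and the series title speaks of feeders at low density. The summed level of 14 leukocyte markers was 9.14 to 15.1 CPM in all libraries (2 of 10 tested rose and 2 fell in 1/7MC), and PTPRC, the pan-leukocyte antigen, stayed at or below 0.497 CPM. Of 10 endothelial markers 2 rose and 5 fell in 1/7MC (26.65 to 66.25 CPM summed over all libraries). Of 6 trophectoderm markers tested 2 rose and 3 fell (637 to 2161 CPM summed over 10 markers). Among all genes tested 23.7% rose and 21.3% fell in 1/7MC, close to the shares of the leukocyte markers.

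Adding pyruvate to 1/7MC gave no call for most of the risen genes, and the median of the 32 was 0.145, against -0.011 for all genes. Of the 20 genes that had risen in 1/7MC, IFI35 (-0.76 ± 0.24) and IFIT5 (-0.44 ± 0.13) were called lower, and MX1 and PARP12 (0.46 ± 0.14) higher. IRF1, SP110 and TAP1, which had fallen, rose, and MX2 made the sixth rise. CMPK2 (-0.775 ± 0.291, adjusted p = 0.0867) and XAF1 (1.059 ± 0.355, adjusted p = 0.057) missed the threshold, though their pyruvate libraries did not overlap those of 1/7MC. These 2 comparisons share the 1/7MC libraries. The calls of IRF1 and TAP1 passed in every alternative run, and those of the other 6 genes missed the threshold in at least 1. Without 1/7MC replicate 1 only 3 rose, and the number of falls was 0 when that library, 1/7MC replicate 3 or 1/7MC+Pyr replicate 3 was left out. It was 1 when 1/7MC replicate 2 or 1/7MC+Pyr replicate 1 was.

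Pluripotent cell markers moved with the 3 genes that fell and came back. Of 12 such markers 8 fell and 0 rose in 1/7MC against MC (by edgeR also 0 at an unadjusted p under 0.05, and 0 by DESeq2), and 7 rose and 0 fell when pyruvate was added (0 and 0 likewise). Their summed level was 4652 to 4726 CPM in MC, 2640 to 2944 in 1/7MC, 4343 to 4592 in 1/7MC+Pyr and 3514 to 3969 in 1/7MC+Pyr+FGF, and none was at 0. Among all genes tested 21.3% fell in 1/7MC against MC and 8.08% rose with pyruvate. The part of the pluripotent cell markers in the course of IRF1, SP110 and TAP1 was not tested.

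The addition of FGF to pyruvate gave the clearest one-way change: 14 of 32 fell, with a median of -0.89 over the 32 against 0.009 for all genes, and 12 of the 14 fell more than 2-fold. At an unadjusted p under 0.05, 22 were lower and 0 higher by edgeR, and DESeq2 called 16 lower and 0 higher. Of the 14, DTX3L, IFI6, IRF9, ISG15, MX1, OAS1X, OAS1Y, PARP12, USP18 and XAF1 had also risen in 1/7MC against MC, a comparison that shares no library with this one. These 10 are 50% of the listed genes that rose there and 71.4% of those that fell here. Over all 13920 genes tested, 196 did both, 5.93% of the 3303 that rose and 66.4% of the 295 that fell. The share of falling genes that had risen before was thus close to that over all genes. DHX58, IRF7, MX2 and PARP14 fell with FGF without having risen. CMPK2, EIF2AK2, HERC6, IFI35, IFI44, IFI44L, IFIH1, IFIT5, PARP9 and STAT2 had risen and were not called with FGF. The falls of IFI6, IRF9, ISG15, MX1, OAS1X, OAS1Y, PARP12 and PARP14 passed in every alternative run, and the other 6 missed the threshold in at least 1.

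The 10 genes that rose in 1/7MC and fell with FGF, chosen by those calls, summed to 14.5 to 16.02 CPM in MC, 79.7 to 96.7 in 1/7MC, 82.0 to 95.8 in 1/7MC+Pyr and 21.6 to 34.0 in 1/7MC+Pyr+FGF. FGF replicate 3 was the highest of its group for all 10 and FGF replicate 2 the lowest for 7. Of the 30 fibroblast markers 8 fell and 1 rose with FGF, with a median of -0.40. Replicates 1 to 3 with FGF summed to 21560, 28430 and 29640 CPM for these markers, and to 25.7, 21.6 and 34.0 for the 10 genes. In 1/7MC they summed to 29090, 36580 and 27010 CPM, and to 79.7, 90.1 and 96.7 for the 10 genes. In no group did both sums order the replicates alike. Among all genes tested 2.12% fell and 0.639% rose with FGF. The part of the fibroblast markers was not tested here either.

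**Figure D3:**
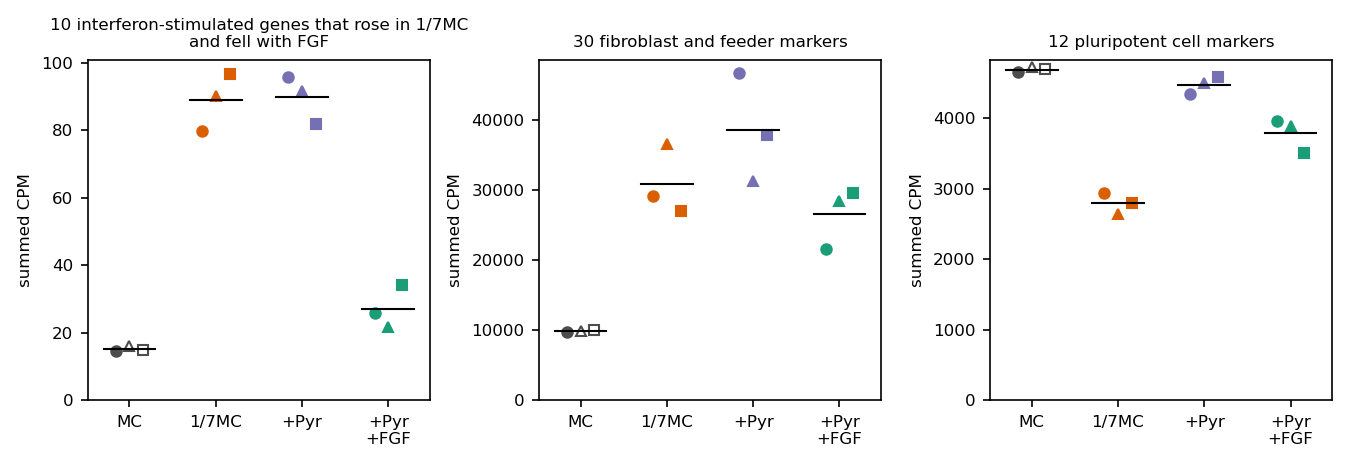
Summed CPM per library (y axis, linear from 0) of the 10 interferon-stimulated genes that rose in 1/7MC and fell with FGF, of 30 fibroblast and feeder markers and of 12 pluripotent cell markers, by group; symbols are replicates 1 to 3 (circle, triangle, square), bars are means, and open symbols are MC replicates 2 and 3. The 10 genes sum to 21.6 to 34.0 CPM with FGF and 14.5 to 16.02 in MC, and the fibroblast markers sum to 21560 to 29640 and 9662 to 9943.

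Set against 1/7MC without additions, 1/7MC+Pyr+FGF had 18 of 32 genes lower and 2 higher, where 15.7% of all genes were lower and 11.9% higher. The median was -0.79, against 0.011 for all genes. The 2 that were higher were IRF1 (0.86 ± 0.15) and TAP1 (0.76 ± 0.11). OAS1X fell by 2.46 ± 0.34, OAS1Y by 2.32 ± 0.25 and ISG15 by 2.14 ± 0.26. IFI44L (-1.75 ± 0.50, adjusted p = 0.0213), IFIH1 (-1.83 ± 0.44, adjusted p = 0.00899) and PARP9 (-1.08 ± 0.27, adjusted p = 0.0108), which had missed the threshold against 1/7MC+Pyr, were called here.

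Compared with MC, the pyruvate group without FGF still had 19 of 32 genes higher and 1, IRF7, lower, against a background of 15.2% higher and 13.2% lower. With MC replicate 1 alone 14 of 35 were higher and 0 lower (background 6.56% and 3.15%); for that 0, edgeR gave 1 lower at an unadjusted p under 0.05, and DESeq2, run with all MC libraries, called 1. The largest difference was that of XAF1, 4.72 ± 0.49 above MC, followed by IFI44L at 4.5 ± 0.65 and IFI6 at 4.15 ± 0.24. In MC, XAF1 had 2, 2 and 9 counts and IFI44L 1, 1 and 11, so the size of their folds is uncertain. IFI6 had 24, 15 and 14. Both fits called 13 genes the same way. The call of IRF7 was absent without 1/7MC+Pyr replicate 3, and 2 genes were lower without MC replicate 1.

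With pyruvate and FGF, 9 of 32 genes stayed higher than in MC and 5 were lower, where 17.1% of all genes were higher and 15.4% lower. The share of lower genes was close to the background. The median was 0.34, against 0.04 for all genes. The 9 were CMPK2, HERC6, IFI44L, IFI6, IRF9, ISG15, OAS1Y, PARP9 and XAF1, with XAF1 at 2.90 ± 0.53, IFI6 at 2.29 ± 0.25, ISG15 at 2.06 ± 0.31 and OAS1Y at 1.81 ± 0.28. The 5 were DHX58 (-0.72 ± 0.15), IRF7 (-1.62 ± 0.20), PARP14, SP110 and TAP1 (-0.38 ± 0.11). With MC replicate 1 alone 6 of 35 were higher and 2 lower (background 5.86% and 6.13%), and 7 of the 14 calls were the same in both fits. A fit of these 2 groups only gave 5 higher and 2 lower, and 3 were lower without MC replicate 2 or without FGF replicate 3. IFI6, ISG15, OAS1Y and XAF1 were higher, and DHX58 and IRF7 lower, in every alternative run.

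**Figure D4:**
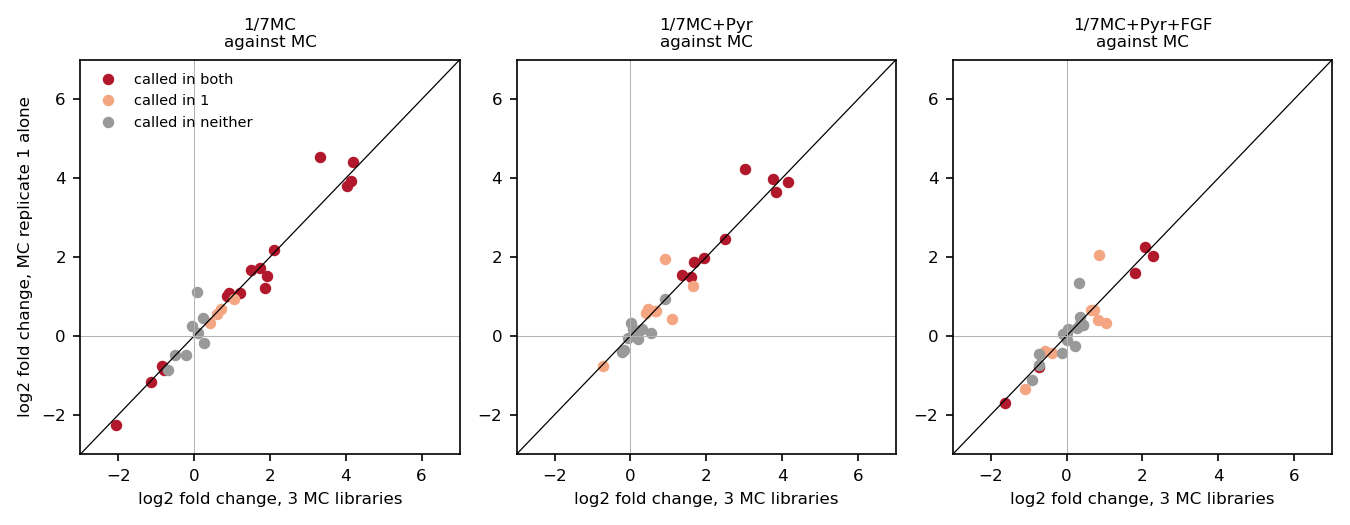
Log2 fold changes of tested interferon-stimulated genes in 3 comparisons with MC, using all MC libraries (x axis) and MC replicate 1 alone (y axis), with the line of equality; dark red points are called in both fits, light red in 1 and grey in neither, and 4 genes with 3 counts or fewer in MC replicate 1 are left out. In the left panel all genes above 2 on the x axis are called in both.

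The genes around the response were read from further lists. Of 14 interferon ligands, 5 had an entry of their own (IFNK, IFNE, IFNG, IFNL3 and IFNT2), and all were too low to test. Their summed level did not exceed 0.0866 CPM in any library and IFNG, IFNL3 and IFNT2 had no count in any. IFNB1, IFNB3 and IFNAG share identifiers with other entries and were left out, and IFNB2, IFNA1, IFNAH, IFNW1, IFNT and IFNT3 matched no entry.

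Of 10 receptor, kinase and STAT genes, 7 rose and 1 fell in 1/7MC against MC (5 and 1 with MC replicate 1 alone), with a median of 0.46. IFNGR2, the signalling chain of the interferon gamma receptor, read 8.91, 9.80 and 8.31 CPM in MC, 34.5, 34.1 and 37.5 in 1/7MC, 28.6, 31.6 and 28.8 with pyruvate, and 16.8, 14.9 and 21.2 with pyruvate and FGF. Its groups did not overlap. IFNGR2 rose by 1.97 ± 0.13 (adjusted p = 2.85e-07) and fell by 0.75 ± 0.13 with FGF (adjusted p = 0.00908). IFNAR2, a chain of the type I receptor, read 0, 0.0319 and 0.0742 CPM in MC, 0.472, 0.451 and 0.664 in 1/7MC, 0.617, 0.517 and 0.355 with pyruvate, and 0.117, 0.0302 and 0.0567 with pyruvate and FGF. It passed the test as higher in 1/7MC, with too few counts in MC for a fold, and fell by 2.74 ± 0.56 with FGF (adjusted p = 0.0232).

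The partner chain IFNAR1 rose by 0.57 ± 0.11 in 1/7MC, STAT3 by 1.53 ± 0.10, JAK1 by 0.59 ± 0.08, IL10RB by 0.35 ± 0.10 and TYK2 by 0.31 ± 0.11. IFNLR1, the chain specific to lambda interferons, fell by 1.24 ± 0.20 and rose by 0.85 ± 0.21 with pyruvate. IFNGR1 and JAK2 were not called in 1/7MC. With pyruvate 1 rose and 3 fell. With FGF added 3 fell (IFNAR2, IFNGR2 and STAT3) and 0 rose (0 at an unadjusted p by edgeR, 0 by DESeq2). Of all genes tested, 23.7% rose and 21.3% fell in 1/7MC, 8.08% and 10.1% with pyruvate, and 0.639% and 2.12% with FGF. The share of rises with pyruvate was close to the background.

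Of 15 nucleic acid sensing genes tested out of 17, 8 rose and 3 fell in 1/7MC (7 and 1 with MC replicate 1 alone), with a median of 0.45. RIGI, the sensor of short viral RNA, read 7.42, 5.17 and 5.83 CPM in MC, 17.5, 18.8 and 16.6 in 1/7MC, 18.3, 18.1 and 16.8 with pyruvate, and 9.44, 8.26 and 10.4 with pyruvate and FGF. RIGI rose by 1.52 ± 0.14 and fell by 0.92 ± 0.14 with FGF, the course of ISG15 at a smaller size. ZBP1, a sensor of left-handed nucleic acids, had 0 counts in all MC libraries and a mean of 0.408 CPM in 1/7MC, at least 12.8-fold higher against a floor of 3 counts over the MC group. ZBP1 fell by 2.41 ± 0.52 with FGF (adjusted p = 0.0385).

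TLR3 (3.38 ± 0.33), the kinase IKBKE (2.55 ± 0.22), STING1 (1.53 ± 0.20) and CGAS (0.97 ± 0.21) rose in 1/7MC too. TLR3 and CGAS did not wait for FGF: they fell by 1.55 ± 0.28 and 1.04 ± 0.21 with pyruvate. IRF8 (-1.07 ± 0.17), IRF5 (-1.91 ± 0.72) and TRAF3 (-0.45 ± 0.10) fell in 1/7MC. With pyruvate 1 rose and 3 fell. With FGF added RIGI, ZBP1 and IKBKE fell and 0 rose (0 at an unadjusted p by edgeR, 0 by DESeq2). The background was 23.7% rising and 21.3% falling in 1/7MC, 8.08% and 10.1% with pyruvate, and 0.639% and 2.12% with FGF. The share of falls in 1/7MC and of rises with pyruvate was close to it.

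Of 10 negative regulators 2 rose and 1 fell in 1/7MC, where 23.7% of all genes rose and 21.3% fell. Neither share exceeded the background. SOCS3 rose by 1.34 ± 0.26 with all MC libraries and by 0.69 ± 0.18 against MC replicate 1 alone, which had 17.6 CPM where MC replicates 2 and 3 had 7.597 and 7.87. SOCS1, an inhibitor of JAK kinases, read 36.9, 32.4 and 32.5 CPM in MC, 17.5, 15.8 and 16.9 in 1/7MC, 32.7, 33.9 and 31.9 with pyruvate, and 34.5, 40.4 and 41.9 with pyruvate and FGF. SOCS1 thus fell by 1.02 ± 0.10 and rose by 0.97 ± 0.10 with pyruvate, as IRF1 and TAP1 did. None of the 10 was called with FGF (by edgeR 1 was higher and 0 lower at an unadjusted p under 0.05, and DESeq2 called 0).

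**Figure D5:**
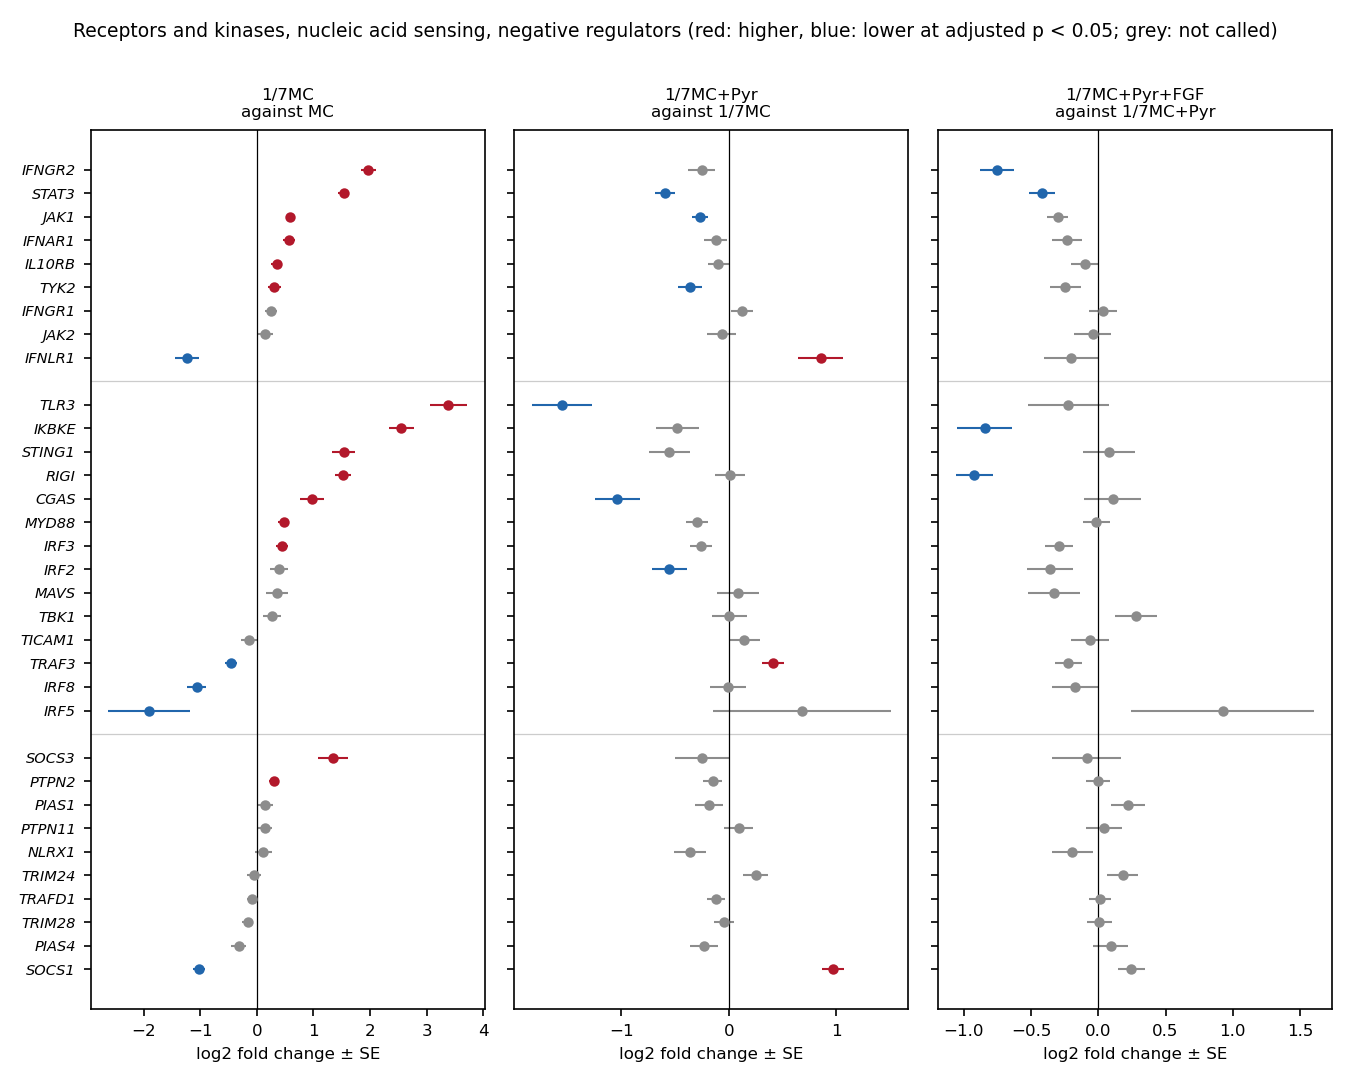
Log2 fold change ± SE (x axis, separate scales) of interferon receptors, kinases and STAT genes (top), nucleic acid sensing genes (middle) and negative regulators (bottom) in 3 successive comparisons; red marks higher, blue lower at an adjusted p under 0.05, grey not called. IFNAR2 and ZBP1, with 3 counts or fewer in all of MC, are left out; SOCS1 and IFNLR1 lie left in the first panel and right in the second.

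Of 28 further interferon-inducible genes tested out of 46, 10 rose and 4 fell in 1/7MC, with a median of 0.27 (background 23.7% and 21.3%). With pyruvate 3 rose and 1 fell (background 8.08% and 10.1%), and the share of rises was close to the background. With FGF 5 fell and 0 rose (background 2.12% and 0.639%). For that 0, edgeR gave 1 higher at an unadjusted p under 0.05, and DESeq2 called 0. IFI27, a mitochondrial protein, read 0.700, 0.511 and 0.854 CPM in MC, 6.95, 6.84 and 10.2 in 1/7MC, 6.68, 6.38 and 6.001 with pyruvate, and 1.05, 0.454 and 1.90 with pyruvate and FGF. IFI27 rose by 3.54 ± 0.38 and fell by 2.48 ± 0.36 with FGF (adjusted p = 0.00449). GBP5, a guanylate-binding protein, rose by 1.84 ± 0.30 and fell by 1.25 ± 0.30, and UBA7, the enzyme that activates ISG15 for conjugation, rose by 0.96 ± 0.17 and fell by 1.07 ± 0.18.

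RTP4 had 0 counts in MC, a mean of 0.201 CPM in 1/7MC (at least 6.29-fold higher against the same floor) and fell by 2.63 ± 0.56 with FGF. BATF2 (1.59 ± 0.27) and LGALS3BP (1.31 ± 0.23) rose in 1/7MC. IFI30, a lysosomal reductase of antigen processing, fell by 0.90 ± 0.13 in 1/7MC and rose by 0.98 ± 0.13 with pyruvate. The chemokine genes CXCL9, CXCL10 and CXCL11 had 0 counts in all libraries, and PARP10 fell by 0.79 ± 0.13 with FGF.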

How the data were processed

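RNA-seq libraries of bovine embryonic stem cells were deposited by the authors as a table of whole-number counts per gene, and as a second table of length-scaled expression signal. The submitters' processing notes name the bosTau9 build and the tools featureCounts, Subread 2.0, HISAT2 2.1.0 and fastp 0.19.7, with no role or order. The deposited signal was used only to compare levels between genes and as an alternative. Times its gene's length and divided by its count, it is constant within a library.

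Of 19285 entries, 400 that share an identifier with another were left out of tests. Symbols came from a RefSeq gene table of another assembly, matched by identifier (19195 entries), from which only names and neighbours were used. Promoter and protein sequences were not used here. Genes were filtered by edgeR's filterByExpr, leaving 13920. Counts were normalised by TMM and fitted over all 12 libraries with edgeR 4.0.16 (quasi-likelihood test, Benjamini-Hochberg adjustment, threshold 0.05) in R 4.3.3. Alternatives were DESeq2 1.42.0, limma 3.58.1 on the rescaled signal with a pseudocount of 0.1, other filters and scalings, fits of 2 groups, and each library left out. The code was tested on simulated data.

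Genes called in 1/7MC against MC in both fits, or called between the 1/7MC groups, are given in every library, and the rest by range. The genes and lists (ligands, receptors, sensing, regulators, other inducible genes and markers of 5 cell types) were chosen with earlier results of these data known. Same-numbered libraries correlated at -0.316 to 0.333 in their deviations from group means, so the numbers were not taken to pair them. A result of the receptor list is not reported here.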

Additional observations from a re-analysis of the deposited data

How the results depend on the processing

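The counts of listed genes called higher or lower stayed within 1.5 times of those reported under the other size factors, DESeq2, the filters, the rescaled signal and the fit with all entries kept, apart from these values. For 1/7MC+Pyr against 1/7MC, the 2 falls became 1 without a filter and 1 with the replicate block. For 1/7MC+Pyr against MC, the 1 fall became 2 without a filter and 0 with MC replicate 1 alone. For 1/7MC+Pyr+FGF against MC, the 9 rises became 5 in a fit of the 2 groups only, and the 5 falls became 2 there and 2 with MC replicate 1 alone. With the replicate block 14 falls with FGF became 12, IRF7 (adjusted p = 0.0774 by edgeR) and MX2 (0.0731) losing their call. Leaving out each library gave 19 to 22 rises and 4 to 5 falls in 1/7MC against MC, 3 to 5 and 0 to 2 with pyruvate, 0 to 0 and 10 to 13 with FGF against pyruvate, 2 to 2 and 12 to 17 with FGF against 1/7MC, 16 to 20 and 0 to 2 for pyruvate against MC, and 6 to 10 and 3 to 5 for FGF against MC. No call changed direction. Genes near or under 1 CPM in all groups, such as IFI44 and SP110, rest on few counts, and 3 libraries a group limit the precision. The cause of these shifts was not tested.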

Other observations

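Some entries had counts in MC replicates 2 and 3 far from those of the other libraries. IFITM1, an interferon-induced membrane protein, had 0 counts in MC replicate 1, 114 and 103 in MC replicates 2 and 3, and between 0 and 6 in each of the other 9 libraries. LOC777594, which carries IFITM3 among its synonyms, had 6199 counts in MC replicate 1, 983 and 1026 in MC replicates 2 and 3, and between 5645 and 9921 in the other libraries. LOC783680, the entry that shares an Ensembl identifier with B2M, had 1114 counts in MC replicate 1, 339 and 141 in MC replicates 2 and 3, and between 854 and 1612 in the others. IFITM1 was too low to test.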
